A study of Homo sapiens with 16 samples.

Results

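Gene counts of PMA-treated THP-1 cells with a hairpin against DNMT3B were compared with those of PMA-treated cells with a hairpin against UHRF1. The comparison used 4 of the 16 libraries of the series, 2 labelled shDNMT3B PMA and 2 labelled shUHRF1 PMA, taken by the line and treatment in the column names of the count table, across all its genes. THP-1 is a human acute monocytic leukemia line that takes on macrophage features under phorbol 12-myristate 13-acetate (PMA), a phorbol ester that activates protein kinase C. Each line carried a lentiviral pLKO.1 vector with 1 short hairpin and was selected with puromycin. Cells were kept for 48 h in 100 ng/ml PMA or in the solvent DMSO. The other lines, a non-targeting control (shNC) and shDNMT1, and the DMSO libraries serve here as reference levels. Descriptions of 12 of the 16 samples went against their titles, and columns were therefore tied to groups by their own names. Nothing in the sources tells whether the 2 libraries of a group came from separate cultures, and p-values measure the spread between them only.

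UHRF1 binds hemimethylated DNA behind the replication fork and brings in DNMT1, which copies the methylation pattern onto the new strand, whereas DNMT3B adds methyl groups to unmethylated sites. UHRF1, HELLS and CDCA7 are made mainly in cycling cells. PMA drives THP-1 cells out of the cell cycle, makes them adhere and turns on phagocytic, inflammatory and lipid-handling genes.

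The 4 libraries held 21061373 and 13883556 counts (shDNMT3B PMA, replicates 1 and 2) and 21286757 and 14873941 counts (shUHRF1 PMA). Levels are counts scaled to library size with TMM factors (CPM). The macrophage and monocyte genes CD68 (950 to 1209 CPM), SPI1 (282 to 324 CPM), CSF1R (651 to 1260 CPM) and ITGAM (175 to 237 CPM) were present in all 4 libraries. The T cell genes CD3D and CD3E, the B cell gene MS4A1, the megakaryocyte gene PF4 and the epithelial gene EPCAM had no count in any of them. Mitochondrially encoded genes took 19.5% and 9.35% of the counts in the libraries labelled shDNMT3B and 9.54% and 3.92% in those labelled shUHRF1, so this share moved with both the line and the replicate number.

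The targeted transcripts were looked at first. DNMT3B stood at 2.74 and 3.19 CPM in the PMA libraries labelled shDNMT3B, at 1.53 and 1.74 CPM in those labelled shUHRF1 and at 1.26 and 1.59 CPM in shNC. It was thus higher under its own hairpin label than in the other line (edgeR, log2 difference 0.86 ± 0.23, adjusted p = 0.0264). Against shNC after PMA the log2 difference of the libraries labelled shDNMT3B was 1.06 (adjusted p = 0.00688). In DMSO the order was the other way round, with 6.396 and 6.87 CPM in the libraries labelled shDNMT3B, 9.58 and 11.4 in those labelled shUHRF1 and 8.73 and 9.73 in shNC. The call after PMA was lost with each of the 4 libraries left out in turn (log2 difference 0.75 to 0.97).

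UHRF1 stood at 26.2 and 33.97 CPM in the libraries labelled shDNMT3B and at 9.62 and 12.2 CPM in those labelled shUHRF1. UHRF1 was thus lower under its own hairpin label (log2 difference 1.46 ± 0.27, adjusted p = 0.00395, and 2.28e-08 with the replicate block described below). Its level in shNC was lower still, at 4.62 and 7.43 CPM, and the log2 difference of the libraries labelled shUHRF1 from shNC was 0.87 (adjusted p = 0.129). Without shUHRF1 PMA replicate 1 the log2 difference between both lines was 1.30 (adjusted p = 0.0529). Since the transcript levels after PMA went against the label of the DNMT3B hairpin, and gave no fall against shNC for the UHRF1 hairpin, groups are named here as libraries labelled shDNMT3B and libraries labelled shUHRF1, and higher or lower always means higher or lower in the libraries labelled shDNMT3B. The other methyltransferases gave values close to each other in both groups. DNMT1 was at 70.4 and 102 against 71.1 and 109.6 CPM (log2 difference -0.07 ± 0.30, adjusted p = 0.913), and DNMT3A at 39.8 and 36.6 against 39.5 and 41.4 CPM (log2 difference -0.08 ± 0.18, adjusted p = 0.816).

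Of 16503 genes tested, 2169 (13.1%) were called, which means an adjusted p under 0.05 in edgeR's quasi-likelihood test. Among them, 1195 were higher (7.24%) and 974 lower (5.9%) in the libraries labelled shDNMT3B. Counts of called members in the gene lists below are to be read next to these shares. The differences were often large: the median size of the log2 difference was 1.34 among the higher and 0.97 among the lower genes, and 261 higher and 128 lower genes passed 2. The groups did not overlap for any called gene, but a call on 2 against 2 libraries nearly implies this, so it adds no support. The median log2 difference of all genes tested was 0.02. Libraries with the same replicate number shared part of their deviation, so a second fit took the replicate number as a block. It called 32.1% of the genes, with 2623 higher (15.9%) and 2681 lower (16.2%), among them the 1195 and the 974. With any 1 of the 4 libraries left out, 562 to 619 genes were called higher and 347 to 513 lower. With mitochondrially encoded genes removed before the fit, 1203 and 993 genes were called. Upper-quartile factors moved the median of all genes by 0.12 and gave 1588 higher and 696 lower genes, so that the share of calls on the higher side was 69.5% instead of 55.1%.

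**Figure D1:**
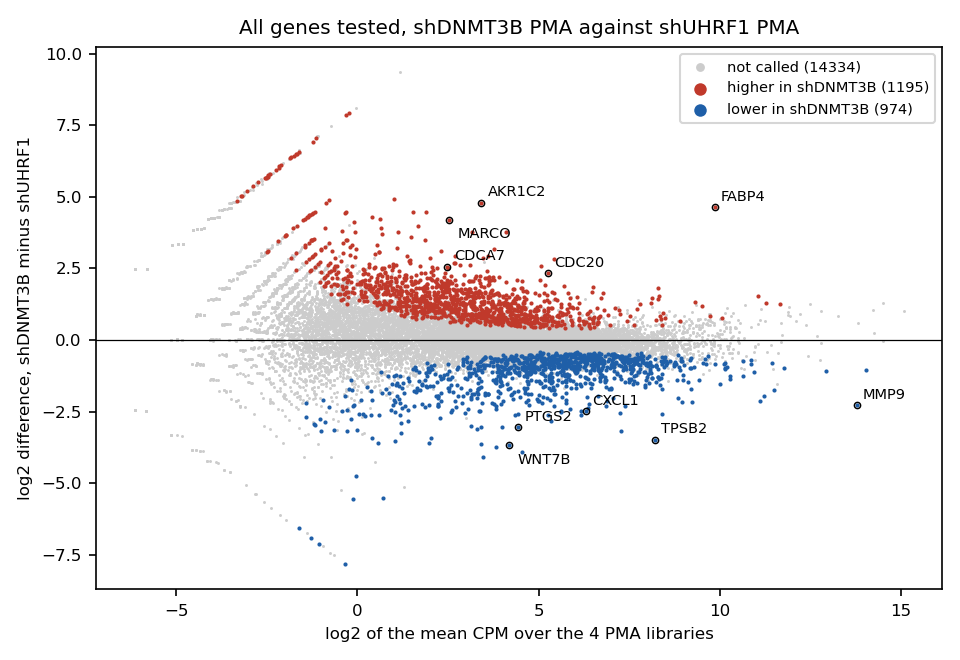
Log2 difference (shDNMT3B minus shUHRF1, vertical axis) against the log2 of the mean CPM (horizontal axis) for the genes tested, each point a gene, red called higher (1195), blue called lower (974), grey not called, leaving out 50 genes without a count in the 4 libraries. More called genes pass a size of 2 on the higher side (261) than on the lower side (128).

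Cell division genes were higher in the libraries labelled shDNMT3B as a group. Of 67 mitosis and kinetochore genes, all of which passed the filter on low counts, 56 were called higher and none lower, with a median log2 difference of 1.64. Of 61 tested DNA replication genes, 40 were higher and none lower (median 1.02). Of 64 tested DNA repair genes, 18 were higher and 2 lower (median 0.30, and 10 to 14 higher with 1 library left out). In bulk libraries a larger share of cycling cells cannot be told apart from more RNA of these genes per cell.

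CDC20, which switches on the anaphase-promoting complex, was at 63.98 and 62.8 CPM in the libraries labelled shDNMT3B and at 13.3 and 11.9 CPM in those labelled shUHRF1. The log2 difference was 2.33 ± 0.17 (adjusted p = 1.79e-05), and both groups stood above the 7.25 and 6.86 CPM of shNC. The mitotic cyclin gene CCNB2 was at 18.96 and 18.9 against 4.08 and 4.31 CPM (log2 difference 2.17 ± 0.19, adjusted p = 4.38e-05). Here the libraries labelled shUHRF1 lay just under shNC (4.89 and 4.98 CPM). CENPF, which codes for a kinetochore protein, was at 37.8 and 39.5 against 11.5 and 12.2 CPM (log2 difference 1.70 ± 0.15, adjusted p = 4.38e-05). The spindle assembly factor gene TPX2 was at 34.8 and 37.6 against 10.8 and 11.1 CPM (log2 difference 1.73 ± 0.16, adjusted p = 5.02e-05). In the libraries labelled shDNMT1, CDC20 was at 50.2 and 40.1 CPM and CENPF at 42.3 and 44.7 CPM, so this line too stood above shNC.

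Genes of replication licensing followed. CDT1, which loads the MCM helicase onto origins, was at 17.5 and 21.2 against 3.96 and 4.73 CPM (log2 difference 2.16 ± 0.22, adjusted p = 8.91e-05). CDC6, its partner in this step, was at 13.3 and 12.8 against 3.62 and 3.96 CPM (log2 difference 1.78 ± 0.16, adjusted p = 4.38e-05). Among repair genes, the recombination and Fanconi genes EXO1 (1.91), RAD54L (1.89), FANCD2 (1.75) and BLM (1.47) had the smallest adjusted p of their list, and all 4 were higher with each library left out. Those lower, OGG1 (-0.77) and XRCC1 (-0.65), which were chosen after their values were seen, act in base excision and strand break repair, and both calls were lost with each library left out.

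**Figure D2:**
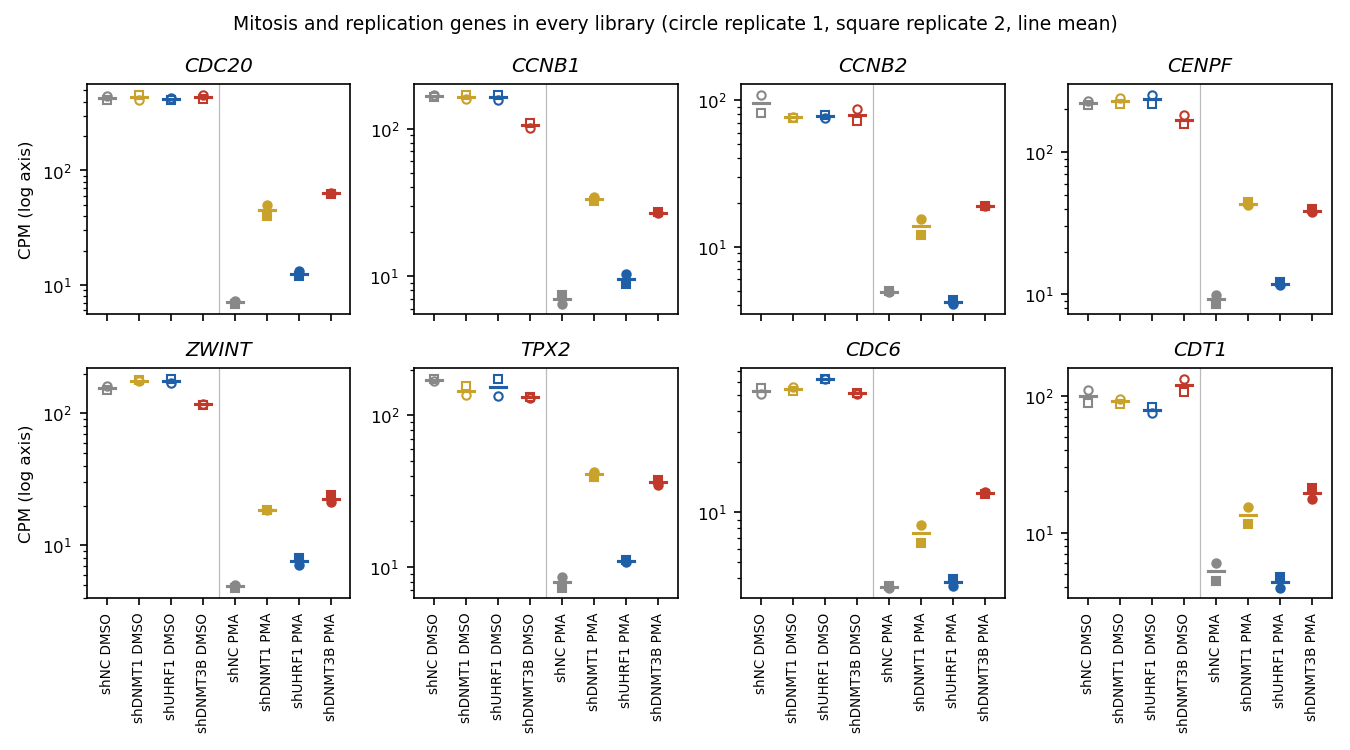
CPM (log axis) of 6 mitosis genes and of CDC6 and CDT1 in all 16 libraries, 8 groups on the horizontal axis, open for DMSO and filled for PMA, circles replicate 1, squares replicate 2, lines the mean of both. To the right of the grey line, after PMA, the libraries labelled shDNMT3B (red) lie above those labelled shUHRF1 (blue) for each gene, while in DMSO, to its left, CCNB1, CENPF, ZWINT, TPX2 and CDC6 lie lower in the libraries labelled shDNMT3B and CDT1 lies higher. Of these differences in DMSO, those of CCNB1 and ZWINT were called.

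Promoter sequences of 2 of these genes are shown because the mitosis list moved together. They come from RefSeq (GRCh38.p14) and run from 250 bases before to 50 bases after the start, 5′ to 3′ on the strand of the gene. Capitals mark the CCAAT box (CCAAT) and the cell cycle homology region (TTTGAA), each read on both strands.
CDC20 (chr1:43358731-43359030, strand +): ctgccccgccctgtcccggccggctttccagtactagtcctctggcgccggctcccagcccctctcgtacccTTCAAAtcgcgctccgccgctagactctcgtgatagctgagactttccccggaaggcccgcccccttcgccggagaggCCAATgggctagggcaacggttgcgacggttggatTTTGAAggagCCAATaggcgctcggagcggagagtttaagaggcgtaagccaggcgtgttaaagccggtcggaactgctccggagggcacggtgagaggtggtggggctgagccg
CCNB2 (chr15:59104896-59105195, strand +): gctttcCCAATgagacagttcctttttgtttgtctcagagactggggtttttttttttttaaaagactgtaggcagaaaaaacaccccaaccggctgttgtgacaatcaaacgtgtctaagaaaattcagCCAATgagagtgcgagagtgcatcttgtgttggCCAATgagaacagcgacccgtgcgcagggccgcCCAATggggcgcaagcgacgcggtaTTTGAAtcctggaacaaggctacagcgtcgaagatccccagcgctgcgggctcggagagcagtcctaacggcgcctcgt
CDC20 held 2 CCAAT boxes and 2 TTTGAA matches in this window, and CCNB2 held 4 and 1. Promoters were found for 58 of the 67 mitosis genes, 1 window per gene. Of these 58, 72.4% held CCAAT and 65.5% TTTGAA, against 35.7% and 15.4% of all 27305 promoters of the table. The shares were 36.6% and 10.1% for genes tested and 41.9% and 15.9% for all genes called higher. For the replication genes (52 of 61 found) the shares were 59.6% and 3.85%. The motifs were chosen after the list was seen, and the matches are a description of letters, not of bound sites.

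In the list of genes that write and keep DNA methylation, some members were higher along with the cell cycle genes. Of 28 tested members of this list, 7 were called higher and 2 lower, and 3 to 4 and 0 to 1 with 1 library left out. In the main fit these shares were 25% and 7.14%, next to 7.24% and 5.9% of all genes, so the lower share was near that of all genes. CDCA7, which recruits the remodeller HELLS, was at 8.85 and 10.2 CPM in the libraries labelled shDNMT3B and at 1.30 and 1.95 CPM in those labelled shUHRF1 (log2 difference 2.56 ± 0.31, adjusted p = 0.000273). HELLS itself was at 11.3 and 10.6 against 5.15 and 4.03 CPM (log2 difference 1.24 ± 0.21, adjusted p = 0.00252). The calls of CDCA7 and HELLS held with each library left out. GADD45B, a stress gene linked to demethylation, was at 23.6 and 26.5 against 15.2 and 14.6 CPM (log2 difference 0.75 ± 0.17, adjusted p = 0.0130), and of the 4 fits with 1 library left out only that without shDNMT3B PMA replicate 1 kept its call. TET1, an enzyme that oxidizes 5-methylcytosine, was at or below 0.86 CPM in all 4 libraries and not called (adjusted p = 0.149, and 0.0455 with the block).

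Macrophage genes split. In the differentiation list, 8 of 42 tested members were higher and 11 lower (6 to 7 and 6 to 10 with 1 library left out, and 10 and 18 with the block), with a median of -0.38. FABP4, a fatty acid carrier of macrophages and adipocytes, was at 2106 and 1467 CPM in the libraries labelled shDNMT3B and at 85.6 and 58.3 CPM in those labelled shUHRF1, so that the groups stood far apart (log2 difference 4.63 ± 0.34, adjusted p = 1.79e-05). In shNC it was at 23.2 and 14.003 CPM, below both lines. MARCO, a scavenger receptor of resident macrophages, was at 11.8 and 10.1 against 0.679 and 0.487 CPM (log2 difference 4.21 ± 0.47, adjusted p = 0.000144). VSIG4, a complement receptor of resident macrophages, was at 35.2 and 28.01 against 2.38 and 2.22 CPM (log2 difference 3.78 ± 0.26, adjusted p = 1.79e-05). The libraries labelled shUHRF1 lay under the shNC values of 4.94 and 5.92 CPM for this gene.

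CYP27A1, which makes 27-hydroxycholesterol, was at 82.1 and 67.4 against 10.8 and 10.4 CPM (log2 difference 2.82 ± 0.21, adjusted p = 1.79e-05). CD36, a receptor for oxidized lipoproteins and fatty acids, was at 463 and 455 against 169 and 172 CPM (log2 difference 1.43 ± 0.20, adjusted p = 0.000704), with shNC at 39.99 and 41.5 CPM. The lipid handling list had 7 higher and 4 lower among 28 tested members, and 6 to 7 and 0 to 2 with 1 library left out. PLIN2, which coats lipid droplets, was at 4629 and 4519.6 against 2022 and 1799.9 CPM (log2 difference 1.26 ± 0.18, adjusted p = 0.000606), and both groups exceeded the 539 and 471 CPM of shNC. SCARB1, the high-density lipoprotein receptor gene, was at 92.4 and 78.9 against 29.9 and 32.5 CPM (log2 difference 1.46 ± 0.17, adjusted p = 0.000169). SELENOP, a secreted selenium carrier, was at 6.05 and 8.15 against 0.226 and 0.417 CPM (log2 difference 4.46 ± 0.68, adjusted p = 0.00116).

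Other macrophage genes were lower. CD163, the hemoglobin scavenger receptor, was at 18.4 and 19.996 CPM in the libraries labelled shDNMT3B and at 86.6 and 89.96 CPM in those labelled shUHRF1 (log2 difference -2.20 ± 0.25, adjusted p = 0.000159), where shNC lay between them at 38.99 and 40.9998 CPM. The lysosomal protease gene CTSK was at 8.11 and 7.59 against 33.2 and 25.8 CPM (log2 difference -1.91 ± 0.22, adjusted p = 0.000186). CSF1R, which codes for the M-CSF receptor, was at 684 and 651 against 1136 and 1260 CPM (log2 difference -0.84, adjusted p = 0.00585), a call lost without shDNMT3B PMA replicate 2 (adjusted p = 0.0660). The markers CD14 (17.3 and 9.50 against 18.96 and 10.2 CPM, adjusted p = 0.871) and ITGAM (198 and 216 against 175 and 237 CPM, adjusted p = 0.999) overlapped between groups. RGS1, a regulator of G-protein signaling, gave 753 and 830.0 against 671 and 661 CPM without being called (adjusted p = 0.706).

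**Figure D3:**
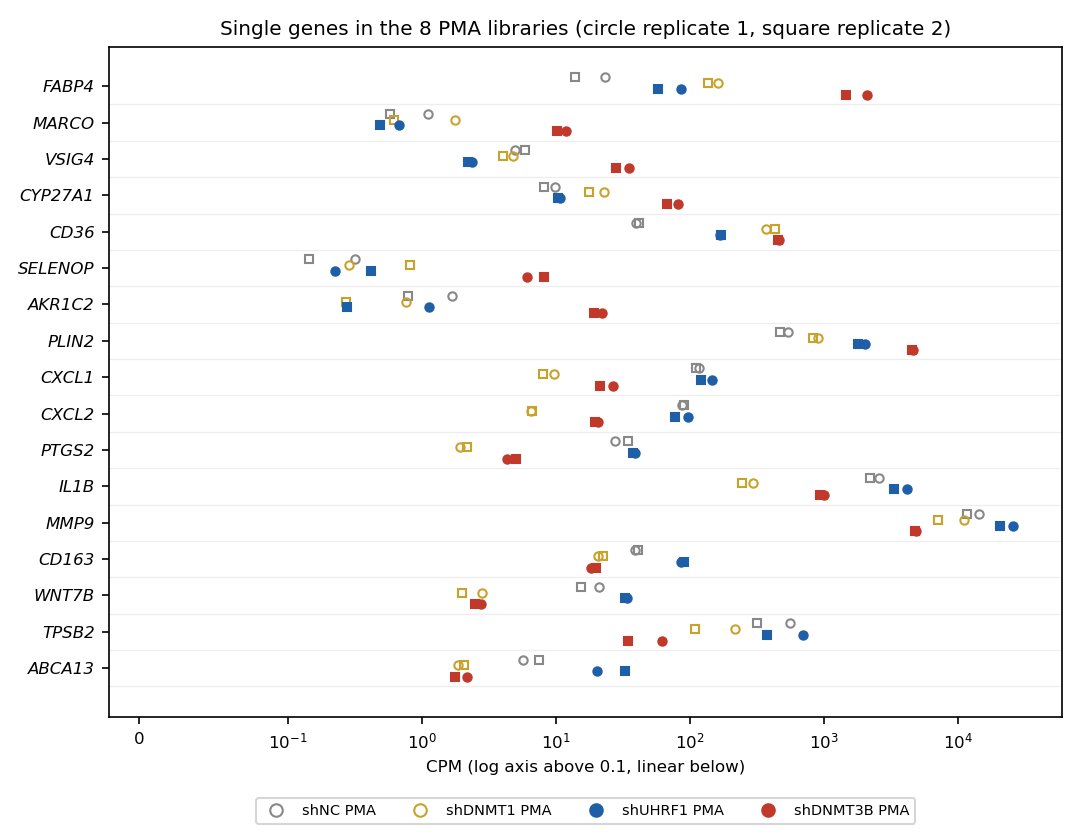
CPM (log axis above 0.1, linear below) of 17 genes in the 8 PMA libraries, filled points for the libraries labelled shDNMT3B (red) and shUHRF1 (blue), open points for shDNMT1 (yellow) and shNC (grey), circles replicate 1, squares replicate 2. From FABP4 to PLIN2 the red points lie to the right of the blue points, and from CXCL1 to ABCA13 they lie to the left.

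Inflammatory genes were lower more often than higher in the libraries labelled shDNMT3B. Of 36 tested members of the activation and M1 cytokine list, 4 were called higher and 11 lower, with a median of -0.47. The block gave 5 and 20, and with 1 library left out 1 to 3 were higher and 8 to 10 lower. PTGS2, the inducible cyclooxygenase gene, was at 4.28 and 5.03 CPM against 38.8 and 37.9 CPM in the libraries labelled shUHRF1 (log2 difference -3.04 ± 0.26, adjusted p = 4.38e-05). The neutrophil-attracting chemokine genes CXCL1 (26.8 and 21.2 against 147 and 122 CPM, log2 difference -2.48 ± 0.21, adjusted p = 4.32e-05) and CXCL2 (20.8 and 19.7 against 96.5 and 77.1 CPM, log2 difference -2.10 ± 0.19, adjusted p = 4.38e-05) were lower too. The libraries labelled shUHRF1 lay near shNC, which gave 118 and 111 CPM for CXCL1 and 87.6 and 90.4 CPM for CXCL2.

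IL1B, the gene of interleukin-1 beta, was at 1000.3 and 941 against 4162 and 3321 CPM (log2 difference -1.95 ± 0.24, adjusted p = 0.000329), where the lower group was also below shNC (2599 and 2205 CPM). CXCL10, an interferon-induced chemokine, went the other way with 224 and 154 against 106 and 66.6 CPM (log2 difference 1.13 ± 0.28, adjusted p = 0.0181), a call lost without shUHRF1 PMA replicate 2 (adjusted p = 0.152) or shDNMT3B PMA replicate 1 (adjusted p = 0.170). TNF did not overlap between the groups but was not called (11.7 and 12.2 against 8.15 and 10.4 CPM, adjusted p = 0.535). IL6 had 7 counts over the libraries labelled shDNMT3B and 3 over the others and was not tested.

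The promoters of CXCL1 and CXCL2 are shown because both chemokine genes were lower in the libraries labelled shDNMT3B. Capitals mark matches to an NF-kappaB motif on either strand.
CXCL1 (chr4:73869143-73869442, strand +): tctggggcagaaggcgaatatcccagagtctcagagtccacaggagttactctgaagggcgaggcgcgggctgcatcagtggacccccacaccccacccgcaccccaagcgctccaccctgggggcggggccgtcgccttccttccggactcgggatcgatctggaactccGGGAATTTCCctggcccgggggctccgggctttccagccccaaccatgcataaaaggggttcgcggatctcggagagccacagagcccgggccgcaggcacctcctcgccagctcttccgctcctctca
CXCL2 (chr4:74099146-74099445, strand -): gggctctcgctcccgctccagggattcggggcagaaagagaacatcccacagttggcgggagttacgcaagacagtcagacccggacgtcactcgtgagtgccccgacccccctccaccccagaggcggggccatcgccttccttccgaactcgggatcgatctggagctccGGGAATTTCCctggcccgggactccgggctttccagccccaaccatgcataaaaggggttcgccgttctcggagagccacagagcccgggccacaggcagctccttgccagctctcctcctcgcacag
Each window held 1 match, and 1.92% of all promoters of the table held at least 1. The share was 2.4% for genes called lower, 1.55% for genes called higher and 2.17% for genes tested, so the motif did not follow the lower genes as a whole. An AP-1 site, also looked for, was held by 8%, 3.43% and 4.69% of these promoters. Promoters were found for 31 of the 39 genes of the activation list, too few to read a share for the list, and 8 of these 31 (25.8%) held the motif.

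Genes of feedback inhibitors were called in both directions. SOCS3, an inhibitor of cytokine receptors, was at 4.80 and 6.81 against 35.04 and 35.5 CPM (log2 difference -2.61 ± 0.26, adjusted p = 8.09e-05). In the list of AP-1, EGR and ERK feedback genes, 4 of 33 tested members were higher and 8 lower (0 to 2 and 4 to 5 with 1 library left out). The shares called were 12.1% higher and 24.2% lower, next to 7.24% and 5.9% of all genes. The ERK and p38 phosphatase genes DUSP4 (35.1 and 34.2 against 65.9 and 60.9 CPM) and DUSP10 (82.1 and 87.2 against 171 and 159.5 CPM) and the ERK pathway inhibitor gene SPRED2 (81.4 and 79.8 against 164 and 145 CPM) had differences near a factor of 2, at log2 -0.87, -0.97 and -0.94. EGR3, an immediate early transcription factor gene, was at 2.57 and 2.98 against 8.15 and 9.38 CPM (log2 difference -1.66 ± 0.28, adjusted p = 0.00199). Among the higher members were the phosphatase genes DUSP2 (26.3 and 25.03 against 12.6 and 9.73 CPM, log2 difference 1.20, edgeR adjusted p = 0.00975) and DUSP8 (4.51 and 4.82 against 1.70 and 2.16 CPM, log2 difference 1.28, adjusted p = 0.0393). Both were chosen after their values were seen. The call of DUSP2 was lost without shUHRF1 PMA replicate 2 or shDNMT3B PMA replicate 1 (log2 difference 1.02 and 1.16). That of DUSP8 was lost with each library left out (log2 difference 1.11 to 1.45). In the list of M2 and regulatory genes, 2 of 22 tested members were higher and 6 lower (3 to 4 lower with 1 library left out). These shares were 9.09% and 27.3%, next to 7.24% and 5.9% of all genes, so the higher share was near that of all genes. TGFB1 was at 694 and 699 against 1822 and 1716 CPM (log2 difference -1.34 ± 0.26, adjusted p = 0.00469).

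Among sensors and receptors the share of higher genes was near the 7.24% of all genes. In the list of toll-like receptors, inflammasome genes and nucleic acid sensors, 3 of 36 were higher (8.33%) and 7 lower (19.4%, against 5.9% of all genes), and 2 to 3 and 1 to 3 with 1 library left out. AIM2, a sensor of cytosolic DNA, was at 42.3 and 40.4 against 113 and 85.4 CPM (log2 difference -1.26 ± 0.21, adjusted p = 0.00221), whereas STING1, the adaptor of another DNA sensing pathway, was at 75.97 and 59.8 against 33.3 and 28.5 CPM (log2 difference 1.14 ± 0.21, adjusted p = 0.00334). PYHIN1, of the same family as AIM2, was at 1.20 and 1.56 against 0.0566 and 0.209 CPM (log2 difference 3.37 ± 0.57, adjusted p = 0.00210). Among scavenger, Fc and inhibitory receptors, 4 of 41 were higher (9.76%) and 7 lower (17.1%), and with 1 library left out 3 to 5 were lower. FCAR, the IgA receptor gene, was at 9.94 and 11.4 against 65.4 and 66.7 CPM (log2 difference -2.63 ± 0.36, adjusted p = 0.000585). In the complement list 2 of 22 were higher and 5 lower (1 to 3 lower with 1 library left out), and the inhibitor gene SERPING1 was at 63.98 and 61.5 against 18.96 and 19.95 CPM (log2 difference 1.69 ± 0.25, adjusted p = 0.000889).

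Genes of the matrix, of proteases and of plasminogen activation were lower more often than higher. Of 36 tested members of this list, 17 were called lower and 1 higher, with a median of -1.07. The block gave 26 and 4, and 9 to 13 were lower with 1 library left out. MMP9, a gelatinase and among the most abundant transcripts after PMA, was at 4904 and 4787 CPM in the libraries labelled shDNMT3B and at 25705 and 20739.9 CPM in those labelled shUHRF1, with shNC between them at 14476 and 11712 CPM (log2 difference -2.26 ± 0.45, adjusted p = 0.00581). Its call was lost without shDNMT3B PMA replicate 1 (adjusted p = 0.0590) or 2 (adjusted p = 0.0605). MMP8, a neutrophil collagenase gene, was at 3.31 and 3.55 against 28.1 and 28.7 CPM (log2 difference -3.05 ± 0.32, adjusted p = 0.000361), and MMP7 at 36.3 and 28.8 against 161 and 99.3 CPM (log2 difference -1.9996 ± 0.29, adjusted p = 0.00187). THBD, the endothelial and monocyte thrombin receptor thrombomodulin, was at 313 and 246 against 997 and 816 CPM (log2 difference -1.70 ± 0.19, adjusted p = 0.000166). The 1 higher member was SPARC (log2 difference 2.91), a matrix protein gene chosen after its values were seen, and its call was lost with each library left out.

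Integrin and adhesion genes gave calls both ways. Of 36 tested members of the adhesion list, 5 were higher (13.9%) and 6 lower (16.7%), next to 7.24% and 5.9% of all genes. The block gave 8 and 13, and with 1 library left out 2 to 3 were higher and 2 to 3 lower. ITGB3 (37.9 and 44.9 against 117 and 147 CPM, log2 difference -1.67 ± 0.24, adjusted p = 0.00136) and ITGB7 (151 and 170.1 against 513 and 527 CPM, log2 difference -1.69 ± 0.30, adjusted p = 0.00316) were lower. ITGAL, the alpha chain of the leukocyte integrin LFA-1, was at 160.4 and 150.1 against 52.3 and 59.9 CPM (log2 difference 1.47 ± 0.15, adjusted p = 9.61e-05), and the adhesion gene NCAM1 at 177 and 153 against 55.1 and 50.4 CPM (log2 difference 1.64 ± 0.15, adjusted p = 4.92e-05).

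The tryptase genes, which code for proteases of mast cell granules, were lower. TPSB2 was at 62.2 and 34.5 CPM in the libraries labelled shDNMT3B and at 702 and 377 CPM in those labelled shUHRF1 (log2 difference -3.48 ± 0.44, adjusted p = 0.000361). TPSAB1 (-3.42) and TPSD1 (-4.09) were also lower, but these genes are nearly identical in sequence, and how reads were split among them is uncertain. WNT7B, a secreted WNT ligand (chr22:45920366-45977162), was at 2.74 and 2.48 against 34.2 and 32.7 CPM (log2 difference -3.67 ± 0.28, adjusted p = 1.84e-05). The long noncoding RNA LYPLAL1-AS1 (chr1:219409039-219459369) was at 3.14 and 2.62 against 44.5 and 41.99 CPM (log2 difference -3.90 ± 0.23, adjusted p = 4.38e-05). ABCA13, a transporter gene, was at 2.17 and 1.77 against 20.3 and 32.7 CPM (log2 difference -3.74 ± 0.45, adjusted p = 0.000228). For WNT7B, LYPLAL1-AS1 and ABCA13, shNC lay between the groups.

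Genes of sugar uptake and of sterol synthesis were among the lower genes. In the glycolysis and hypoxia list none of 34 tested members was higher and 11 were lower (median -0.38, 18 lower with the block, 7 to 8 with 1 library left out). The hexokinase gene HK2 was at 91.3 and 86.4 against 247 and 243 CPM (log2 difference -1.46 ± 0.15, adjusted p = 8.09e-05), the glucose transporter gene SLC2A1 at 28.6 and 28.6 against 78.3 and 79.04 CPM (log2 difference -1.46 ± 0.14, adjusted p = 8.02e-05) and SLC2A3 at 4.80 and 4.75 against 17.2 and 18.9 CPM (log2 difference -1.91 ± 0.23, adjusted p = 0.000273). VEGFA, a hypoxia-induced growth factor gene, was at 153 and 167 against 419 and 471 CPM (log2 difference -1.48 ± 0.20, adjusted p = 0.000525), and both groups were below the 773 and 822 CPM of shNC.

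In the sterol and fatty acid synthesis list none of 33 was higher and 5 were lower (1 and 14 with the block). INSIG1, which retains the sterol sensor in the endoplasmic reticulum, was at 129 and 106 against 385 and 357 CPM (log2 difference -1.65 ± 0.21, adjusted p = 0.000392), and shNC was at 800.2 and 693 CPM. The lysosome list had 1 higher and 11 lower members of 55 (2 and 19 with the block, 5 to 8 lower with 1 library left out), among them the proton pump gene ATP6V0D2 (21.8 and 19.2 against 72.1 and 55.6 CPM, log2 difference -1.64 ± 0.29, adjusted p = 0.00381).

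Aldo-keto reductase genes, known targets of the oxidative stress factor NRF2, were higher. In the oxidative stress list, 8 of 29 were higher and 3 lower (4 to 7 and 0 to 2 with 1 library left out). AKR1C2 was at 21.99 and 19.4 against 1.13 and 0.278 CPM (log2 difference 4.80 ± 0.43, adjusted p = 4.38e-05) and AKR1C3 at 5.14 and 6.03 against 0.340 and 0.139 CPM (log2 difference 4.46 ± 0.37, adjusted p = 4.15e-05). In DMSO, AKR1C2 was at 220 and 202 against 29.4 and 29.4 CPM (log2 difference 2.85), so its level was lower after PMA in both lines. AKR1C1 had 54 counts over the libraries labelled shDNMT3B and none over those labelled shUHRF1, which makes it at least 18.3-fold higher when 3 counts over the group are taken as its floor. These 3 genes are close paralogs, so that the split of reads among them is uncertain. The amino acid and ATF4 list had 9 higher and 6 lower members of 47 (18 and 10 with the block, 3 to 5 and 1 to 3 with 1 library left out). The serine synthesis genes PHGDH (55.3 and 51.2 against 12.8 and 12.2 CPM, log2 difference 2.09 ± 0.26, adjusted p = 0.000279) and PSAT1 (37.8 and 35.2 against 12.7 and 14.2 CPM, log2 difference 1.44 ± 0.19, adjusted p = 0.000453) were higher with each library left out.

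In the type I interferon list 2 of 55 tested members were higher after PMA (3.64%, under the 7.24% of all genes) and 10 lower (18.2%, against 5.9%), with a median of -0.32. The block gave 3 and 25, upper-quartile factors 3 and 6, and with 1 library left out 1 to 5 were lower. MX1, a GTPase that blocks viral replication, stood apart with 467 and 503 CPM in the libraries labelled shDNMT3B and 129.7 and 145 CPM in those labelled shUHRF1 (log2 difference 1.82 ± 0.24, adjusted p = 0.000416), while shNC was at 142 and 142 CPM. MX1 overlaps TMPRSS2 on the opposite strand. RSAD2, another antiviral gene, was at 385 and 346 against 695 and 636 CPM (log2 difference -0.86 ± 0.18, adjusted p = 0.00664), a call lost without shUHRF1 PMA replicate 1 (adjusted p = 0.0501) or shDNMT3B PMA replicate 2 (adjusted p = 0.0788). HERC5, the ligase for the ubiquitin-like protein ISG15, was at 124 and 116 against 219.6 and 201 CPM (log2 difference -0.81 ± 0.13, adjusted p = 0.00181).

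The MX1 promoter is shown because this gene went against its list. Capitals mark the match to the core of the interferon-stimulated response element, read on both strands and held by 3.65% of all promoters of the table. It was also held by 27 of the 41 promoters found for the 56 genes of the list (65.9%), so that the match does not set MX1 apart from them, and 41 are too few to read a share for the list.
MX1 (chr21:41420308-41420607, strand +): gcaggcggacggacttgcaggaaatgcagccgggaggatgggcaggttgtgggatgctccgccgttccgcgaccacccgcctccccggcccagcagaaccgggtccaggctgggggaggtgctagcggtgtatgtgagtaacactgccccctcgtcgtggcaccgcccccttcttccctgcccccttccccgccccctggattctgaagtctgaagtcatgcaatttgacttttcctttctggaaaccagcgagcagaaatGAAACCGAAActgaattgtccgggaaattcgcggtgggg
The window held 1 match.

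In the interferon-gamma list 3 of 37 were higher and 2 lower, and the median was 0.03. Shares of antigen presentation genes called higher and lower are set next to 7.24% and 5.9% of all genes. They were 0% and 21.4% for MHC class II and 10% and 5% for MHC class I. Of 14 tested MHC class II genes, none was higher and 3 were lower (1 to 3 with 1 library left out, median -0.03, and 0.09 with upper-quartile factors). HLA-DRA was at 3.66 and 3.404 against 17.8 and 10.4 CPM (log2 difference -1.997 ± 0.33, adjusted p = 0.00203). In the MHC class I list 2 of 20 were higher and 1 lower. HLA-F was at 17.4 and 19.5 against 6.85 and 6.26 CPM (log2 difference 1.49 ± 0.27, adjusted p = 0.00354), while B2M, the shared light chain, was at 5831 and 4187 against 13153 and 8103 CPM (log2 difference -1.09 ± 0.30, adjusted p = 0.0328), its call kept only without shUHRF1 PMA replicate 2 (adjusted p = 0.0275).

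Genes of immature myeloid cells were higher more often than lower. In the progenitor and MLL-AF9 list, 9 of 32 tested members were called higher and 2 lower, with a median of 0.28, and 4 to 7 were higher and 0 to 2 lower with 1 library left out. FLT3, a receptor tyrosine kinase of progenitors, was at 20.2 and 20.3 against 5.15 and 3.68 CPM (log2 difference 2.19 ± 0.22, adjusted p = 8.09e-05), and the transcription factor gene GFI1 at 35.6 and 34.5 against 14.2 and 13.2 CPM (log2 difference 1.35 ± 0.14, adjusted p = 8.92e-05). HOXA9 (45.98 and 49.6 against 22.02 and 24.96 CPM, log2 difference 1.02 ± 0.15, adjusted p = 0.00103) and HOXA10 (26.2 and 25.9 against 12.1 and 11.1 CPM, log2 difference 1.16 ± 0.17, adjusted p = 0.000719) code for homeodomain factors of leukemic self-renewal. For these 4 genes the calls held with each library left out.

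Ribosomal and mitochondrial transcripts were called higher in the libraries labelled shDNMT3B mainly in the blocked fit. Of 75 ribosomal protein genes 1, RPL5, was called (1103 and 1074 against 687 and 525 CPM, log2 difference 0.85 ± 0.25, adjusted p = 0.0436, lost with each library left out), with a median of 0.54, and the block called 58. None of 15 mitochondrially encoded genes was called (median 1.05), against 14 with the block. The difference in mitochondrial share given above moved with these lists, and its part in the other results was not tested beyond the fit without these genes.

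The remaining lists gave small counts, many on few tested members, next to 7.24% higher and 5.9% lower of all genes. Some shares exceeded these but rested on 1 or 2 genes each. They were 13.3% lower for neutrophil granule genes, 16.7% higher for germline genes, 10.5% higher for imprinted genes and 11.8% each way for dendritic cells. For epithelial and stromal genes they were 28.6% higher and 14.3% lower, and for lymphoid genes 8.33% higher. The counts of higher and lower members were 1 and 2 of 15 for neutrophil granule genes, 1 and 1 of 28 for G1 control and p53 targets and 1 and 1 of 21 for replication-dependent histones. They were 0 and 1 of 27 for chaperones of the endoplasmic reticulum, 0 and 1 of 43 for ribosome biogenesis, 0 and 0 of 8 for metallothioneins, 2 and 0 of 12 for germline genes and 2 and 0 of 19 for imprinted genes. Among markers of other cells, counts were 2 and 2 of 17 for dendritic cells, 0 and 0 of 7 for erythroid cells and megakaryocytes, 1 and 0 of 12 for lymphoid cells and 2 and 1 of 7 for epithelial and stromal cells. The summed level of the lymphoid list was 363 and 297 CPM in the libraries labelled shDNMT3B against 186 and 157 CPM, and its called member was NCAM1. The summed level of the epithelial and stromal list was 467 and 416 against 251 and 267 CPM, with PECAM1, also a leukocyte adhesion gene, at 447 and 395 against 229 and 238 CPM. The part of these sums in the other results was not tested. Over all lists, 1126 of 1328 members were tested, of which 191 were called higher and 135 lower, next to the 7.24% and 5.9% of all genes.

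**Figure D4:**
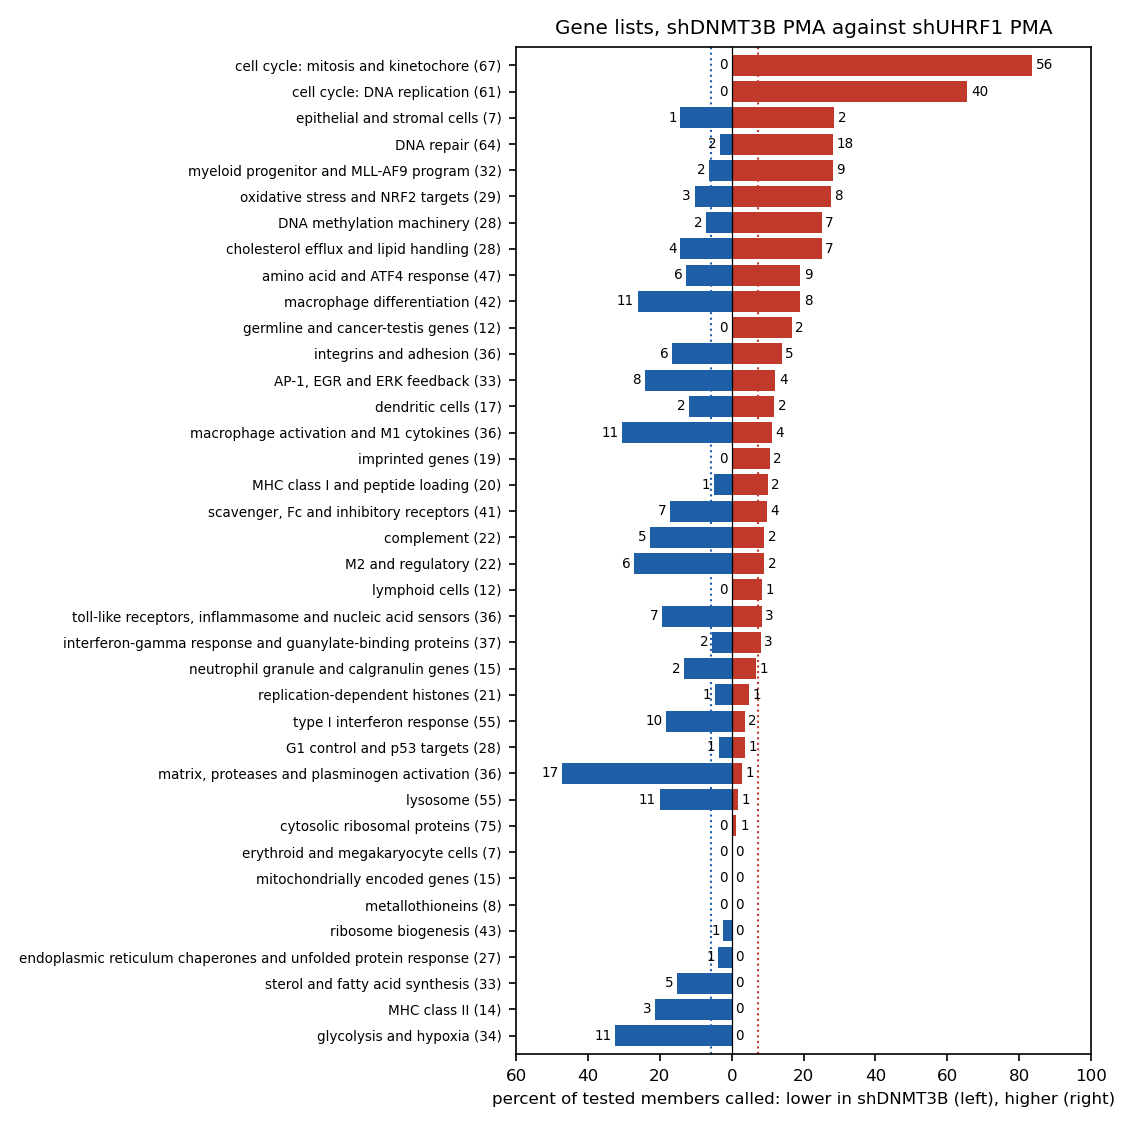
Percent of the tested members of each of 38 gene lists (their number in brackets) that were called higher (right, red) or lower (left, blue) in the libraries labelled shDNMT3B, with counts at the bar ends and dotted lines at the share of all genes. The mitosis list, with 56 of 67 higher, and the matrix and protease list, with 17 of 36 lower, have the longest bars on their sides.

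The same 2 lines were also compared in DMSO, and the change of the difference with PMA was tested in the same edgeR fit (PMA difference minus DMSO difference). This change was called for 724 genes (4.39%), upward for 443 (2.68%) and downward for 281 (1.7%). The block called 15.1%, with 1385 up (8.39%) and 1115 down (6.76%), the fit of only these 8 libraries 242 and 117, and leaving out 1 library 227 to 326 and 123 to 259. In DMSO itself 4.37% of the genes were called, 439 (2.66%) higher and 283 (1.71%) lower in the libraries labelled shDNMT3B. Of the 1195 genes higher after PMA, 157 were also called higher in DMSO and 23 lower, and of the 974 lower after PMA, 94 were also called lower in DMSO and 27 higher. Thus 157 of the 439 and 94 of the 283 DMSO calls had the same direction after PMA.

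The mitosis genes that were higher after PMA were not so in DMSO. None of the 67 mitosis genes was higher and 6 were lower in DMSO (median -0.43), and the change was called upward for 51. CDC20 was at 457 and 423 CPM in the DMSO libraries labelled shDNMT3B and at 429 and 411 CPM in those labelled shUHRF1 (change 2.26 ± 0.23, adjusted p = 0.000206). CCNB1 was at 102 and 109 against 157 and 169 CPM in DMSO and at 26.6 and 27.1 against 10.3 and 8.83 CPM after PMA, so the order of both groups turned round (change 2.12 ± 0.19, adjusted p = 0.000125). The change was upward for 38 of 61 replication genes and 16 of 64 repair genes.

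Type I interferon genes differed in DMSO, where 29 of 55 were lower and none higher (median -1.08), and the change was called upward for 17 and downward for none. MX1 was at 4.39 and 5.599 against 19.3 and 30.6 CPM in DMSO, where shNC gave 95.1 and 114 CPM, and its difference changed sign with PMA (change 4.14 ± 0.35, adjusted p = 7.53e-05). HERC5 was at 5.498 and 5.65 against 20.6 and 20.9 CPM in DMSO (log2 difference -1.89, adjusted p = 1.70e-05). Its difference was smaller after PMA, and the change was 1.08 ± 0.19 (adjusted p = 0.00721).

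Amino acid and ATF4 genes had the largest median difference of the 38 lists in DMSO. There, 37 of 47 were higher and none lower (median 1.49), and the change was called downward for 30 and upward for none. CHAC1, a glutathione-degrading enzyme induced by ATF4, was at 46.6 and 36.8 CPM in the DMSO libraries labelled shDNMT3B and 2.08 and 2.47 CPM in those labelled shUHRF1, but at 3.37 and 4.33 against 3.28 and 2.92 CPM after PMA, where it was not called (adjusted p = 0.404). PSAT1 went from 286 and 289 against 29.8 and 46.5 CPM to the values given above and remained called, with a change of -1.47 ± 0.26 (adjusted p = 0.00681). For PHGDH the DMSO difference of 2.27 and the PMA difference of 2.09 were close, and the change was not called (adjusted p = 0.879).

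Other genes were on the same side under both treatments. FABP4 was at 3.12 and 3.003 CPM in the DMSO libraries labelled shDNMT3B and at 0.0968 and 0.0476 CPM in those labelled shUHRF1. VSIG4 was at 8.14 and 8.96 against 0.387 and 0.476 CPM in DMSO (log2 difference 4.29, adjusted p = 7.93e-06), and CYP27A1 at 16.9 and 15.01 against 4.11 and 3.95 CPM (log2 difference 1.98, adjusted p = 0.000284). In contrast, IL1B (1.43 and 1.48 against 0.871 and 1.47 CPM), SOCS3 (1.80 and 2.19 against 1.79 and 1.90 CPM) and HK2 (14.5 and 18.1 against 14.8 and 17.7 CPM) were not called in DMSO. The change was called for all 3, at -2.25, -2.72 and -1.47 (adjusted p = 0.00665, 0.00185 and 0.00184).

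**Figure D5:**
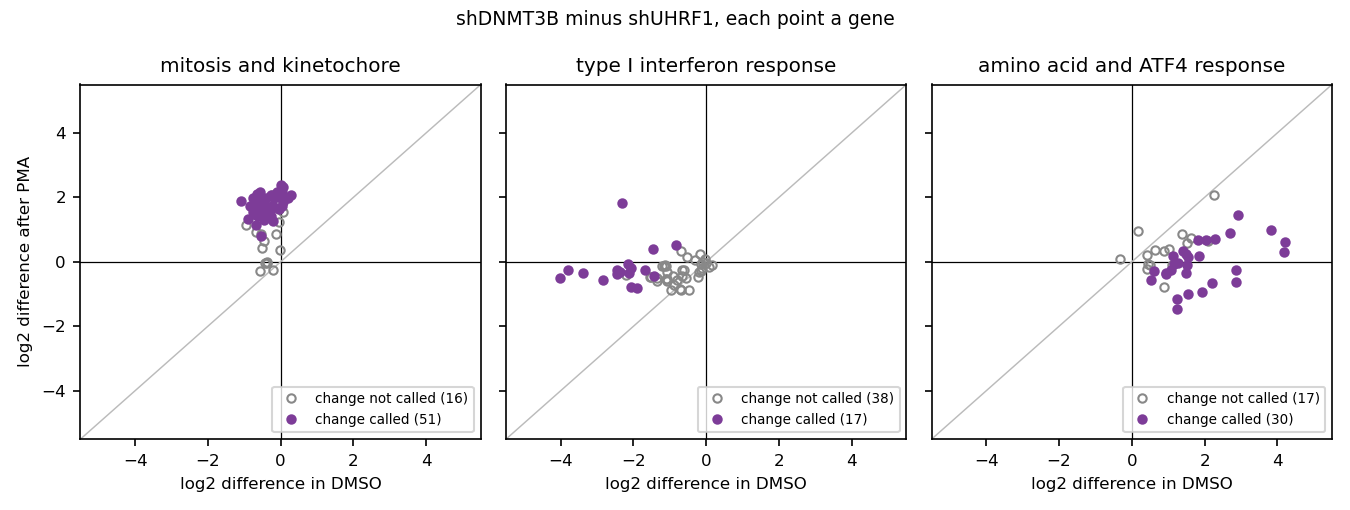
Log2 difference (shDNMT3B minus shUHRF1) after PMA (vertical axis) against that in DMSO (horizontal axis) for the tested genes of 3 lists, filled where the change with PMA was called, with a grey line of equal differences. Mitosis genes lie above the line near 0 in DMSO, most interferon genes to the left of 0 in DMSO, and ATF4 genes to the right of 0 in DMSO.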

How the data were processed

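RNA of THP-1 lines with a stable hairpin, after 48 h in DMSO or 100 ng/ml PMA, was sequenced in 16 libraries, 2 for each of 8 groups. The deposited table holds raw counts per gene (60676 genes). According to the study and the submitters' processing notes, the authors aligned the stranded reads to hg38 with STAR 2.4.0b and counted them with HTSeq 0.6.1p1. Cufflinks 2.1.1 is also named in the notes. The annotation release and the strand setting of the count step were not given in the sources used here, so overlapping genes such as MX1 and TMPRSS2, and the noncoding RNAs opposite AKR1C2, AKR1C3, FABP4 and MARCO, may share reads. Gene symbols came from GENCODE 44 (60357 genes, of which 1194 share a symbol, while 319 were left without one), and 32623 genes had no count in any library. All columns of the table were used. Columns were tied to a group, and to a replicate number, by their own names, since 12 descriptions name another line or treatment than the titles.

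Genes with low counts were removed (filterByExpr, minimum count 10, minimum total 15), which left 16503. Factors were TMM. A quasi-likelihood model (edgeR 4.0.16, robust) was fitted to all 16 libraries and 8 groups (8 residual degrees of freedom), which adds the spread of the other groups to that of the pairs compared. P-values were adjusted by the method of Benjamini and Hochberg over all genes tested, and a gene with an adjusted p under 0.05 was called. The self-test on simulated counts of this comparison (16228 genes) found 2.99% of the genes set to a 1.5-fold change, 31.3% at 2-fold and 86.4% at 4-fold, and 3.61% of its calls were false. Its libraries were drawn independently, without a deviation shared by same-numbered libraries, and few genes were changed. These shares may therefore differ from those in the data.

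Alternatives were a replicate block, upper-quartile factors, DESeq2 1.42.0, no filter, fits of fewer libraries, the exact test that follows 3 DEGES rounds of scaling, removal of mitochondrially encoded genes, a log2 limit of 0.585 and leaving out each library. Same-numbered libraries deviated together in all 28 pairs of groups (correlation 0.220 to 0.508, and 0.317 for this pair), which is a check of the data and not given by the labels. The block used 7 residual degrees of freedom and lowered the common dispersion from 0.0439 to 0.0115.

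Named genes were the hairpin targets and genes the study names, the 15 largest differences in each direction among called genes of at least 1 CPM without overlap, for each list up to 4 called members by smallest adjusted p, and the 5 changes with PMA with the smallest adjusted p in each direction. The members, the 38 lists and the rule were chosen with earlier results of these data known, and the CCAAT box, cell cycle homology region and NF-kappaB motifs were added after the values were seen. Ratios with 1 to 3 counts on one side carry a 95% counting interval, which covers counting error only. R 4.3.3, limma 3.58.1, Python 3.11.15, pandas 2.3.3, NumPy 2.4.6, SciPy 1.17.1 and matplotlib 3.10.9 were used.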

Additional observations from a re-analysis of the deposited data

Results flagged for a closer look

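The difference between the lines labelled shDNMT3B and shUHRF1 was itself different under PMA and under DMSO for 443 genes upward and 281 downward (edgeR interaction term, adjusted p under 0.05). The genes with the smallest adjusted p in each direction are given here with their levels.

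Upward, MX1 changed by 4.14 (adjusted p = 7.53e-05), with the levels given above. ZWINT, a kinetochore gene, was at 118 and 116 CPM in the DMSO libraries labelled shDNMT3B and 169.8 and 182 CPM in those labelled shUHRF1, and at 21.1 and 23.97 against 7.13 and 7.99 CPM after PMA (change 2.16, adjusted p = 8.39e-05). The cyclin gene CCNB1 changed by 2.12. SFRP1, an inhibitor of WNT ligands, went from 25.2 and 22.4 against 34.1 and 35.6 CPM to 7.997 and 7.87 against 1.81 and 2.02 CPM (change 2.60, adjusted p = 7.53e-05). CCR2, a monocyte chemokine receptor gene, went from 27.4 and 25.9 against 68.5 and 66.5 CPM to 5.20 and 5.53 against 2.26 and 2.50 CPM (change 2.51, adjusted p = 7.53e-05). ZWINT, CCNB1, SFRP1, CCR2 and MX1 were all lower in the libraries labelled shDNMT3B under DMSO and higher in them under PMA.

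Downward, 4 of the 5 genes belong to stress responses. STC2, a secreted glycoprotein gene induced by ATF4, was at 34.6 and 36.03 against 0.581 and 0.666 CPM in DMSO and at 3.999 and 3.97 against 2.21 and 1.74 CPM after PMA (change -4.80, adjusted p = 2.00e-05). CHAC1 changed by -3.89. DDIT4, an inhibitor of mTORC1, was at 52.9 and 58.2 against 8.04 and 7.32 CPM in DMSO and at 26.8 and 26.1 against 43.9 and 38.03 CPM after PMA (change -3.48, adjusted p = 1.01e-05). SESN2, a sestrin gene of the same pathway, went from 46.8 and 42.3 against 6.58 and 5.71 CPM to 17.3 and 16.6 against 20.9 and 19.7 CPM (change -3.12, adjusted p = 1.19e-05). The noncoding RNA PAX8-AS1 went from 2.27 and 2.24 against 0.823 and 0.856 CPM to 21.8 and 21.9 against 113 and 132 CPM (change -3.91, adjusted p = 1.01e-05). For STC2 the call after PMA alone was kept only without shUHRF1 PMA replicate 1 (adjusted p = 0.0381).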

How the results depend on the processing

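Libraries of the same replicate number deviated together, and the replicate block moved the counts: 2623 genes higher and 2681 lower after PMA, 1385 and 1115 for the change with PMA, and 358 and 265 members of the gene lists in place of 191 and 135. The cause was not tested beyond the fall in dispersion given above. Upper-quartile factors left the counts of all genes within 1.5 times but gave 69.5% instead of 55.1% of the calls on the higher side, moved the median of all genes by 0.12 and turned the sign of 5 of 38 list medians (MHC class II, MHC class I, G1 control, toll-like receptors, dendritic cells). DESeq2 called 490 genes downward for the change with PMA, and the fit of only the libraries compared 242 upward and 117 downward, with fewer samples. With 1 library left out, 562 to 619 genes were higher and 347 to 513 lower after PMA, 227 to 326 and 123 to 259 for the change, and 132 to 137 and 59 to 90 for the lists. The other alternatives kept these counts within 1.5 times.

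For DNMT3B the log2 difference stayed above 0 but was not called without a filter on low counts (0.84), in the fit of only the libraries compared (0.89) or only the PMA libraries (0.87), in the exact test after DEGES (0.87), or with any 1 library left out (0.75 to 0.97). UHRF1 gave 1.26 to 1.64 with 1 library left out. Of 141 named genes called, 105 were called with each of the 4 libraries left out and 8 with none of them.

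Direction turned round for 5 genes, none of them called. With 1 library left out, CD14 ranged from -0.62 to 0.39 (0.24 without shDNMT3B PMA replicate 2). DNMT1 was at 0.055 with upper-quartile factors, and ranged from -0.36 to 0.27 with 1 library left out (0.17 without shDNMT3B PMA replicate 1), and DNMT3A at 0.042 with upper-quartile factors. ITGAM was at -0.0075 without a filter, and ranged from -0.20 to 0.23 with 1 library left out (-0.062 without shDNMT3B PMA replicate 2). SPIB ranged from -0.21 to 1.02. In the self-test, with 2 libraries per group, differences of 1.5-fold were rarely found.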

Other observations

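Genes outside the lists were also among the largest differences. Higher in the libraries labelled shDNMT3B was MYO1D, a class I myosin gene, at 3.66 and 4.18 against 0.170 and 0.0695 CPM (edgeR, log2 difference 4.91 ± 0.83, adjusted p = 0.00278). Lower was TMEM119, known as a marker of microglia, at 35.3 and 25.5 against 304 and 247 CPM (log2 difference -3.18 ± 0.30, adjusted p = 6.40e-05). KANK4 had 2 counts over the libraries labelled shDNMT3B and 104 over those labelled shUHRF1, a ratio of 51.3 (counting interval 13.8 to 429). CD1A, an antigen-presenting molecule of dendritic cells, had 2 and 60 counts, a ratio of 29.6 (7.84 to 250), and its call was lost without shDNMT3B PMA replicate 2 (adjusted p = 0.0596). PPL, an epithelial plakin gene, was at 1.83 and 1.28 against 19.5 and 19.9 CPM (log2 difference -3.65 ± 0.40, adjusted p = 0.000186), and MCC at 2.34 and 1.77 against 16.98 and 18.5 CPM (log2 difference -3.10 ± 0.36, adjusted p = 0.000186).

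Of 19 tested imprinted genes, 2 were called higher (10.5%, near the 7.24% of all genes), and the median of the list was 0.05. Both are given as single genes. MEST was at 3.43 and 2.77 against 0.962 and 0.765 CPM (log2 difference 1.83 ± 0.28, adjusted p = 0.00114) and GRB10, an adaptor of insulin signaling, at 12.4 and 13.3 against 4.81 and 6.47 CPM (log2 difference 1.19 ± 0.19, adjusted p = 0.00151). Both calls held with each library left out. SYTL1, a vesicle trafficking gene that the study names, was at 1.20 and 0.851 against 0.113 and 0.209 CPM (log2 difference 2.67 ± 0.67, adjusted p = 0.0197), a call kept only without shDNMT3B PMA replicate 2 (adjusted p = 0.0461), and SPIB, an ETS factor gene also named there, at 1.31 and 0.638 against 0.962 and 0.487 CPM without being called (adjusted p = 0.709).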
